A study of Mus musculus with 24 samples.

Results

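Gene expression was compared between Glo1+/- and WT aorta in the 5 aorta arrays, of 6 in all and of 24 in the series, whose RNA carried transcripts of brown fat. The arrays were chosen by their Ucp1 value, which had to lie above 12 on the log2 scale. Ucp1 encodes the uncoupling protein of brown adipocytes. It read 14.73 and 14.82 in Glo1+/- aorta 1 and 2, against 14.57, 14.59 and 14.72 in WT aorta 1, 2 and 3. The left-out array, Glo1+/- aorta 3, read 8.14. The value nearest below the limit anywhere in the series was 9.33, in a WT kidney. The choice rests on measured values, so Ucp1, the other brown adipocyte genes, the smooth muscle genes and elastin are described here without a test.

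The Glo1+/- mice carried 1 knockout allele of Glo1 in every cell, on a C57BL/6J background, and came from a line made elsewhere and re-derived by embryo implantation into a WT female. The WT mice were C57BL/6J. Both groups were fed standard chow without restriction, were labelled female and were 36 weeks old when 10 to 15 mg of aorta was flash frozen. The series also holds 18 arrays of gonadal adipose tissue, liver and kidney, 3 per genotype and tissue, each read on Illumina bead arrays from biotin-labelled RNA. The labels name no animal behind a sample, so p-values measure only the spread between these arrays. The time of day of tissue collection is not given in the sources used here.

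Glo1 encodes glyoxalase 1, the glutathione-dependent enzyme that removes methylglyoxal, a reactive by-product of glycolysis that modifies proteins and forms advanced glycation end products. The aorta has a wall of endothelium, contractile smooth muscle with elastic layers, and a collagen-rich adventitia. In mice the fat around the thoracic aorta is brown and burns fatty acids for heat through Ucp1. In such bulk samples, fewer cells of a type and less RNA per cell cannot be told apart.

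The 5 arrays held wall and fat together with transcripts of heart muscle, and 3 of them stood apart by transcripts of further tissues. Pearson correlations across all probes were 0.979 to 0.994 among the 5 arrays and 0.924 to 0.934 with the left-out array. Across 34 marker genes of thymocytes and T cells, the mean level was 8.63 and 8.53 in the Glo1+/- arrays, against 8.54, 8.49 and 10.29 in the WT arrays. Rag1, the recombinase of developing lymphocytes, read 11.37 in WT 3 and 8.17 to 8.33 on the other 4 arrays. The thymus lies beside the aortic arch. Across 32 skeletal muscle genes the means were 9.48 and 9.45 in Glo1+/-, against 9.60, 11.07 and 9.50 in WT, so WT 2 stood apart. Skeletal alpha-actin, Acta1, read 14.16 in WT 2 and 8.10 to 8.73 on the others. Cardiac myosin Myh6 was present on every array but lowest in WT 2, at 12.43 and 12.41 in Glo1+/-, against 12.80, 9.70 and 12.26 in WT. In Glo1+/- 2, the airway secretory gene Scgb1a1 read 13.42, against 8.07 to 8.13 on the other 4 arrays. The mean over 24 epithelial genes was 8.28 and 8.89 in Glo1+/-, against 8.24, 8.23 and 8.47 in WT. The kidney tubule gene Slc34a1 read 8.23 and 9.01 in Glo1+/-, against 8.18, 8.16 and 10.03 in WT. Another gene of that list, Kap, read 8.16 and 8.59 in Glo1+/-, against 8.11, 8.12 and 9.22 in WT. The labels say female, while both Xist probes lay at the floor of the scale on all 24 arrays (8.03 to 8.25) and the Y-linked Eif2s3y read 10.33 to 11.28. The Y-linked Kdm5d and Uty were dim, at 8.40 to 8.81 and 8.27 to 8.58. The 6 aorta arrays shared 1 slide.

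**Figure D1:**
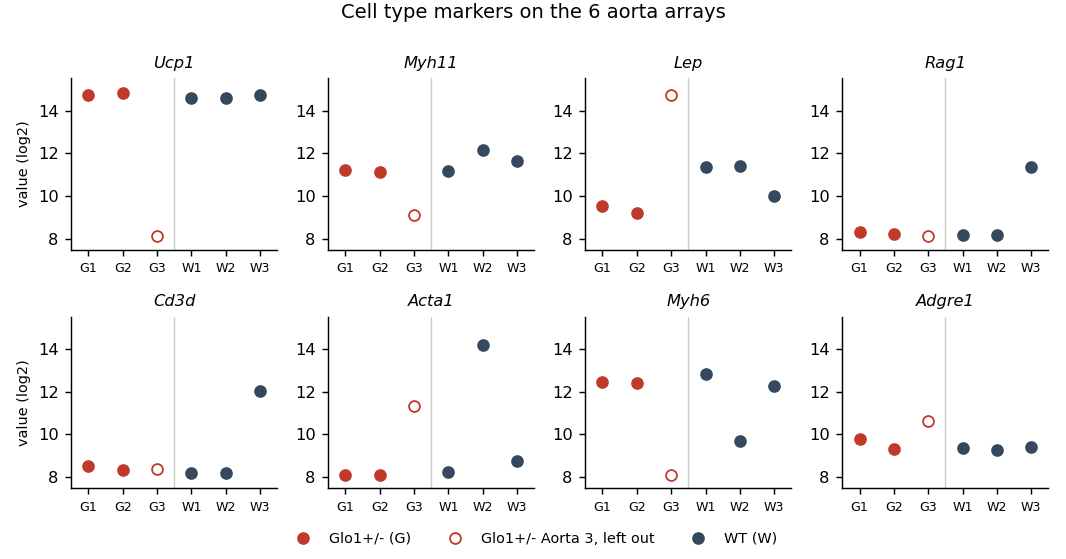
Log2 values of 8 cell type markers on the aorta arrays, with Glo1+/- arrays (G1 to G3) left of WT arrays (W1 to W3) and the left-out array as an open circle. Ucp1 is at 14.57 to 14.82 on the 5 arrays compared and 8.14 on the open one, while Rag1 and Cd3d stand out in W3 and Acta1 in W2.

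Glo1 itself read 10.61 and 11.08 in the Glo1+/- arrays, against 12.17, 12.08 and 11.22 in the WT arrays. The groups did not overlap, but WT 3 lay only 0.14 above Glo1+/- 2 and 0.85 below the next WT array. The difference was -0.98 ± 0.27 on the log2 scale, which did not pass the test over all 25697 probes (limma adjusted p = 0.572). In the 18 arrays of the other tissues the differences were -0.90 in gonadal adipose tissue and -0.88 in both liver and kidney, where the groups did not overlap. With the values taken as log2, the Glo1+/- mean was 0.508 of the WT mean in aorta, 0.536 in adipose tissue, 0.543 in liver and 0.542 in kidney. With WT 3 left out, Glo1 fell by 1.28 in Glo1+/- aorta (limma adjusted p = 0.00159). The left-out Glo1+/- aorta 3 read 11.90, and with it in the fit the difference was -0.63 (limma adjusted p = 0.948). Of the 40 genes annotated next to Glo1, 20 on each side, 19 were on the array and 8 were measured, that is, the mean of their probe exceeded 8.24, the middle value over all probes. Those 8 differed by -0.15 to 0.30, with a median of -0.04. The upper end was Tff2, which read 8.12 and 8.79 in Glo1+/-, against 8.16, 8.13 and 8.16 in WT. It counted as measured through Glo1+/- 2 alone, the array with airway transcripts.

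**Figure D2:**
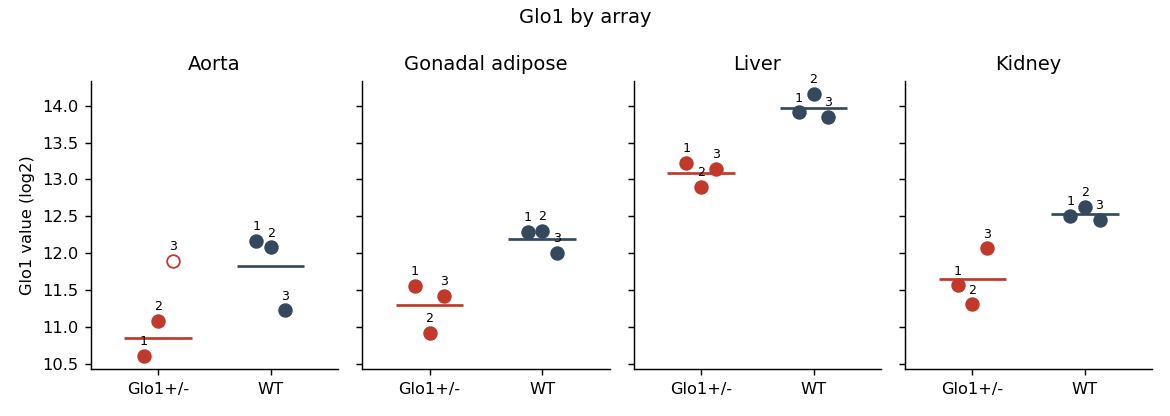
Log2 values of Glo1 on each array, by tissue, with Glo1+/- left of WT, group means as lines, replicate numbers beside the points and the left-out aorta array as an open circle, which is not in its mean. In aorta WT 3 lies at 11.22, near Glo1+/- 2 at 11.08, whereas the genotypes stand further apart in liver.

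Over the whole array, 0 of 25697 probes passed at an adjusted p under 0.05 (limma; 0% called), and 2023 probes, 7.87%, had an unadjusted p under 0.05. The median difference of the 9015 measured genes was -0.01, with quartiles of -0.12 and 0.09. Both Glo1+/- arrays lay above all 3 WT arrays for 1440 measured genes (16%) and below them for 1356 (15%), the shares against which each list's counts below stand. The outcome turned on WT 3: without it, 349 probes passed, 200 higher (0.778% of probes) and 149 lower (0.58%) in Glo1+/-. Counted over measured genes, 1.67% were called higher and 1.36% lower. The part of the thymocyte transcripts of WT 3 in these values was not tested. Of the 151 measured genes called higher in that fit, WT 3 lay between the other WT arrays and the Glo1+/- arrays for 120, at or past a Glo1+/- array for 26 and among or beyond the other WT arrays for 5. Of the 123 called lower, the counts were 59, 59 and 5. With the spread estimated over 23 arrays of all 4 tissues and all 5 aorta arrays kept, 143 probes passed, 117 higher (0.455% of probes) and 26 lower (0.101%). Both of these fits called 39 probes, which is 11.2% of the first set and 27.3% of the second.

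Among the single genes with the smallest p-values, haem oxygenase 1 stood first. Hmox1, which degrades haem and is induced by oxidants, read 9.79 and 9.91 in Glo1+/-, against 8.54, 8.65 and 9.08 in WT. Both Glo1+/- arrays lay above every WT array, by a mean of 1.09 ± 0.16. Noct, a rhythmic phosphatase of NADP cofactors, read 10.81 and 10.71 in Glo1+/-, against 9.95, 9.87 and 10.17 in WT. The odorant receptor gene Olfr654 read 8.60 and 8.47 in Glo1+/-, against 8.11, 8.13 and 8.13 in WT, close to the floor. It counted as measured through the Glo1+/- arrays alone, so its place among the higher genes rests in part on that filter. The other genes of the 12 higher ones were Ciart and Sqle, which appear with their groups below, the fucosyltransferase gene Pofut1, the channel subunit gene Lrrc52, the signalling regulator Rgs3, the membrane protein gene Dcbld2, and Reep6, Dhrs9 and BC028528. Their differences lay between 0.48 and 1.00. None of them passed the test in the 5 arrays.

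On the lower side, Ogt, the enzyme that attaches O-linked N-acetylglucosamine to proteins, read 8.92 and 8.88 in Glo1+/-, against 9.55, 9.59 and 9.50 in WT, a difference of -0.65 ± 0.10. Tubulin gene Tuba1b read 13.16 and 13.19 in Glo1+/-, against 13.85, 13.77 and 13.47 in WT. Also among these 12 genes were 3 that encode RNA-binding proteins, Hnrnpdl at -0.54 ± 0.10, Ddx17 at -0.44 ± 0.09 and Srsf5 at -0.55 ± 0.12. Rpa3, Lasp1, Hat1, Rcan2 and Siva1 differed by -0.58 to -0.44. None passed the test in the 5 arrays, and for each gene named here the 2 groups did not overlap, as the rule for naming required.

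The clock genes lay mostly higher. In each cell the activators CLOCK and BMAL1 (the product of Arntl) switch on genes through the E-box CACGTG, among them Per and other repressors that close the loop. Of 23 matched clock and clock-output genes 19 were measured; 11 lay above all WT arrays in both Glo1+/- arrays and 2 below, with a median difference of 0.31 against -0.01 for all measured genes. Over all 23 matched members the median was 0.15, and with the mean over each gene's probes it was 0.19. The list is shown with its E-boxes because these genes differed together. Per1, Ciart, Tef and Fkbp5, 4 of the 16 measured members with a RefSeq promoter (25%), held CACGTG within the 250 bases before a gene start, against 6.86% of 27025 genes. Per2, Usp2 and Dbp were not among the 4, and Tef and Fkbp5 overlapped between the groups. The list holds clock outputs by design, so this share does not bear on the differences. The stretches below run 5′ to 3′ from RefSeq's GRCm38.p6 table, with 25 bases on each side of the outermost E-box and each CACGTG, a palindrome that reads the same on both strands, in capitals. In Ciart the E-boxes start 116, 58 and 44 bases before the gene start, in Per1 166, and in Tef 127 and 138 bases before its alternative starts. In Fkbp5, whose stretch is not printed, the E-box starts 169 bases before the gene start.
Ciart, chr3:95882242-95882369, minus strand: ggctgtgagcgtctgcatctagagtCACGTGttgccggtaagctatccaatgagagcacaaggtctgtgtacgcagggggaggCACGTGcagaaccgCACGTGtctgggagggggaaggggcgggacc
Per1, chr11:69098758-69098813, plus strand: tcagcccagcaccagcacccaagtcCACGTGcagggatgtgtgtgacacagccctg
Tef, chr15:81802521-81802576, plus strand: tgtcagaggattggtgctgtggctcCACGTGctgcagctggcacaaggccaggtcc
Tef, chr15:81811251-81811306, plus strand: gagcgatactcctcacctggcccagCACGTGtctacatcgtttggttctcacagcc

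Per2, a repressor of the loop, read 10.72 and 11.18 in Glo1+/-, against 9.35, 9.75 and 10.41 in WT, a difference of 1.12. Ciart, which also represses CLOCK and BMAL1 and carries the 3 E-boxes above, read 9.43 and 9.40 in Glo1+/-, against 8.21, 8.30 and 8.73 in WT on its first probe. A second Ciart probe, brighter on average, differed by 0.82. Usp2, a deubiquitinase with a rhythmic transcript, read 10.93 and 10.99 in Glo1+/-, against 9.61, 9.68 and 10.41 in WT. In all 3 genes WT 3 was the WT array nearest to Glo1+/-.

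Per1 read 10.71 and 10.75 in Glo1+/-, against 9.73, 10.39 and 10.42 in WT. Dbp, an output transcription factor, read 12.80 and 12.85 in Glo1+/-, against 11.97, 12.32 and 12.74 in WT. Its relative Tef overlapped, with 11.35 and 11.22 in Glo1+/-, against 10.66, 10.76 and 11.32 in WT. Arntl ran the other way, at 8.19 and 8.34 in Glo1+/-, against 8.84, 8.68 and 8.74 in WT, a difference of -0.49 ± 0.10. Nr1d1, the repressor of Arntl, overlapped, at 10.34 and 10.24 in Glo1+/-, against 10.29, 10.51 and 10.22 in WT. Per1, Dbp, Tef and Nr1d1 were picked for mention after their values were seen.

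No clock gene passed in the 5 arrays. Without WT 3, 7 of the 19 passed as higher (1.67% of measured genes did) and 0 as lower, among them Usp2 at 1.31 (limma adjusted p = 0.000313) and Per2 at 1.40 (adjusted p = 0.00285). For 9 of the 11 members above all WT arrays, WT 3 was the nearest WT array, which held for 47.7% of all measured genes with that order. The list's median was 0.20 to 0.37 with any 1 of the 5 arrays left out. In the other tissues its median difference was 0.26 in adipose tissue, 0.24 in liver and 0.15 in kidney, over the same members. For Ciart the aorta difference did not differ past the threshold from the mean of the other tissues, 0.66 (limma adjusted p = 0.704).

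**Figure D3:**
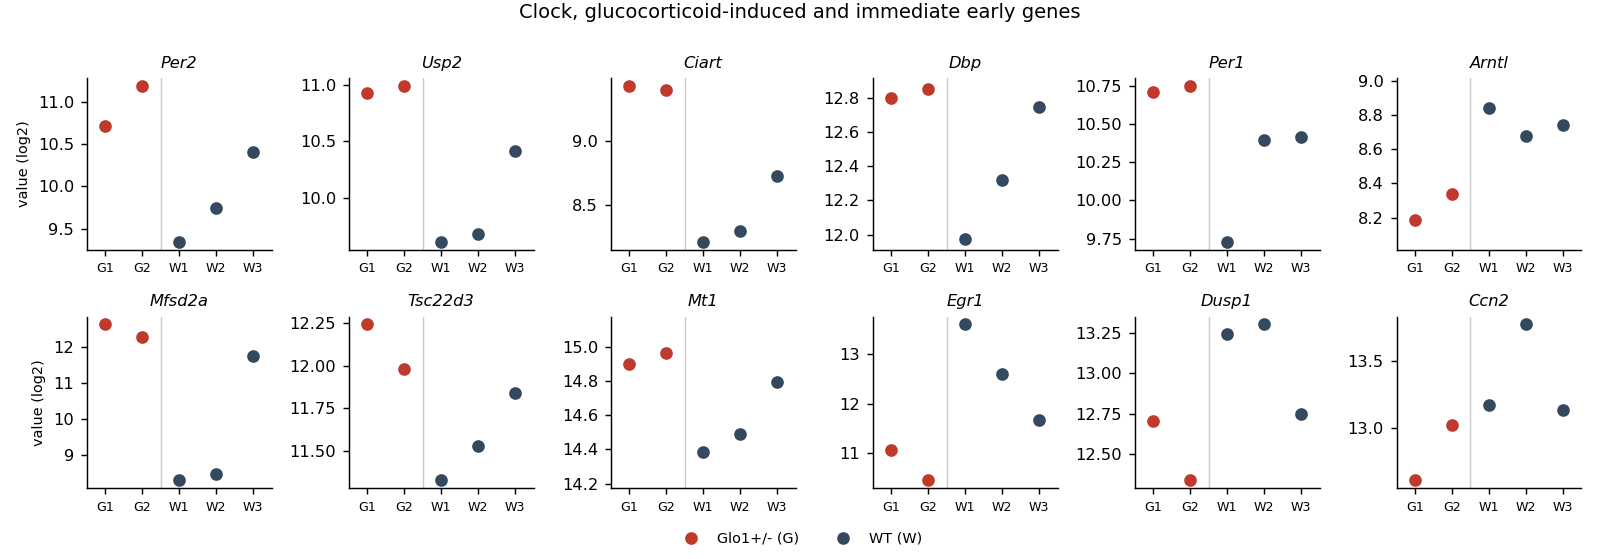
Log2 values of 12 genes on the 5 aorta arrays, Glo1+/- (G1, G2) left of WT (W1 to W3), each panel on its own scale. The upper row shows clock genes, with Arntl opposite to the others, and the lower row glucocorticoid-induced and immediate early genes, with W3 mostly between the Glo1+/- and the other WT arrays.

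Transcripts induced by glucocorticoids, the adrenal hormones that act through a nuclear receptor, also lay mostly higher. Of 19 measured members, 9 lay above all WT arrays and 1 below, with a median of 0.34, and Per1, Tsc22d3 and Fkbp5 of this list are also in the clock list. Mfsd2a, a membrane transporter of lysophospholipids, had the largest positive difference of all measured genes. It read 12.63 and 12.27 in Glo1+/-, against 8.32, 8.48 and 11.74 in WT. WT 1 and WT 2 lay near the floor, and WT 3 close to Glo1+/-. The difference was 2.94 with WT 3 and 4.05 without it (limma adjusted p = 2.91e-07 without).

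Tsc22d3, an anti-inflammatory leucine zipper protein, read 12.24 and 11.98 in Glo1+/-, against 11.33, 11.53 and 11.84 in WT. Metallothionein Mt1, which binds zinc and copper, read 14.90 and 14.96 in Glo1+/-, against 14.39, 14.49 and 14.79 in WT. Its relative Mt2 read 9.14 and 9.55 in Glo1+/-, against 8.63, 8.54 and 9.13 in WT. Fkbp5, a chaperone that restrains the receptor, overlapped, at 9.19 and 9.20 in Glo1+/-, against 8.25, 8.38 and 9.56 in WT. Without WT 3, 7 members passed as higher and 2 as lower, against 1.67% and 1.36% of measured genes, the lower ones being Dusp1 and Angptl4. WT 3 was the nearest WT array for 8 of the 9 members above, and the median was 0.19 to 0.49 with 1 array left out. In the other tissues the median was 0.21 in adipose tissue, 0.18 in liver and 0.15 in kidney.

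Immediate early genes, which cells switch on within minutes of a stimulus, lay on the lower side. Of 21 measured members 0 lay above all WT arrays and 6 below, with a median of -0.20. The median was -0.39 without WT 3, -0.093 without WT 2 and -0.060 over all 28 matched members. Egr1, a zinc finger factor of this class, read 11.06 and 10.46 in Glo1+/-, against 13.61, 12.59 and 11.66 in WT, a difference of -1.86. The phosphatase gene Dusp1 read 12.71 and 12.34 in Glo1+/-, against 13.24, 13.30 and 12.75 in WT. Ccn2, a matricellular growth factor, read 12.61 and 13.02 in Glo1+/-, against 13.17, 13.77 and 13.14 in WT. Fos overlapped, at 9.39 and 8.87 in Glo1+/-, against 11.09, 9.85 and 8.89 in WT. WT 3 was the nearest WT array for 5 of the 6 members below, which held for 44.1% of all measured genes with that order. Without it 3 members passed as lower (1.36% of measured genes did), with Egr1 at -2.34 (limma adjusted p = 0.0024).

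Among brown adipocyte genes the defining members lay close together, and a few lipid enzymes stood further apart. Of 27 measured members 12 lay above all WT arrays and 1 below, with a median of 0.10. Cidea, a lipid droplet protein, read 14.80 and 14.84 in Glo1+/-, against 14.73, 14.71 and 14.70 in WT. Elovl3, the elongase of very long chain fatty acids in brown fat, read 11.98 and 12.15 in Glo1+/-, against 10.59, 10.66 and 11.43 in WT. Slc27a2, which activates very long chain fatty acids, read 12.36 and 12.65 in Glo1+/-, against 11.01, 11.02 and 12.32 in WT. The potassium channel Kcnk3 read 11.44 and 11.63 in Glo1+/-, against 10.78, 10.89 and 11.26 in WT. Of the 27 differences, 20 were positive and 7 negative. Ckmt2, on the lower side, overlapped, at 12.08 and 11.97 in Glo1+/-, against 12.54, 12.42 and 11.98 in WT. Ppargc1b, the member below all WT arrays, read 10.98 and 11.13 in Glo1+/-, against 11.23, 11.38 and 11.14 in WT. The mean over 31 brown adipocyte genes was 11.50 and 11.52 in Glo1+/-, against 11.34, 11.34 and 11.41 in WT, and 8.93 on the left-out array.

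White adipocyte genes lay mostly lower. Lep, the hormone of white fat, read 9.53 and 9.21 in Glo1+/-, against 11.37, 11.41 and 9.98 in WT, a difference of -1.55, and 14.73 on the left-out array. Sncg, a synuclein of adipocytes and neurons, read 10.46 and 10.43 in Glo1+/-, against 11.16, 11.42 and 10.61 in WT. Of 9 measured white adipocyte genes 1 lay above all WT arrays and 3 below, with a median of -0.25, which was -0.44 without WT 3 and -0.058 over all 15 matched genes. The differences were negative for 6 and positive for 3, namely Slc7a10 at 0.36, Dpep1 at 0.30 and Trim29 at 0.06. Hoxc9 and Nnat averaged 8.19 and 8.235 in Glo1+/-, under the middle value of 8.2353, and counted as measured through WT arrays. Retn, another marker of white fat, was at the floor on the 5 arrays (8.06 to 8.27). The summed level of the 15 matched white adipocyte genes was 133.9 to 134.1 in Glo1+/- and 134.9 to 138.2 in WT, and its part in the Lep difference was not tested. General adipocyte genes had 6 of 25 above and 3 below, and a median of 0.06. Without WT 3, the WT array nearest to Glo1+/-, Lep was called lower (limma adjusted p = 6.33e-05). With the left-out array in the fit its difference was 0.24, so the call depends on which arrays were kept.

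Transcripts of secreted liver proteins lay lower as well. Of 12 measured genes on the hepatocyte list 0 lay above all WT arrays and 6 below, with a median of -0.30. Ambp, Apoa1 and Fgg averaged 8.12, 8.20 and 8.21 in Glo1+/- and counted as measured through WT arrays, so the filter favoured lower members. Cyp2e1 ran the other way but overlapped, at 13.62 and 14.16 in Glo1+/-, against 13.20, 13.20 and 13.85 in WT. Without WT 3, 1 member, Cyp2e1, passed as higher and 3 as lower, against 1.67% and 1.36% of measured genes. The median was -0.51 without WT 3, -0.15 without WT 2 and -0.084 over all 20 matched genes. Transthyretin, Ttr, read 8.43 and 8.16 in Glo1+/-, against 9.35, 10.15 and 8.61 in WT, and 12.48 on the left-out array. Albumin, Alb, was at the floor on every aorta array (8.02 to 8.09).

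Fatty acid oxidation genes held 29 measured members, of which 10 lay above all WT arrays and 1 below, with a median of 0.09. Of these 29, 5 are also on the brown adipocyte list, Cpt1b among them, and such genes went into the choice of arrays. The count and median include them, and with all 6 aorta arrays the median was -0.33. Acot1, a thioesterase that splits acyl-CoA, overlapped because of WT 3, at 11.84 and 12.66 in Glo1+/-, against 10.18, 10.29 and 12.17 in WT. Ehhadh, a peroxisomal enzyme of beta oxidation, overlapped likewise, at 10.42 and 10.67 in Glo1+/-, against 9.24, 9.45 and 10.52 in WT. The mitochondrial enzymes were closer. Decr1 read 11.76 and 11.76 in Glo1+/-, against 11.39, 11.46 and 11.53 in WT, and the carnitine palmitoyltransferase Cpt1b 13.72 and 13.56 in Glo1+/-, against 13.33, 13.35 and 13.52 in WT. Angptl4, a secreted inhibitor of lipoprotein lipase, read 12.72 and 12.70 in Glo1+/-, against 13.16, 13.28 and 12.63 in WT. Without WT 3 and outside the brown adipocyte list, 3 members passed as higher and 1, Angptl4, as lower, against 1.67% and 1.36% of measured genes.

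Synthesis of fatty acids and triglycerides split in direction. Gpam, the first acyltransferase of triglyceride synthesis, read 10.44 and 10.42 in Glo1+/-, against 9.71, 9.59 and 9.94 in WT. Dgat1, the last one, read 11.69 and 11.63 in Glo1+/-, against 11.15, 10.99 and 11.29 in WT. The desaturase Fads1 lay below all WT arrays in both Glo1+/- arrays, with a difference of -0.56 ± 0.14. Of the 25 measured members, 7 lay above all WT arrays and 1 below, against 16% and 15% of all measured genes. Elovl3 of the brown adipocyte list is among those above. Without WT 3 and outside the brown adipocyte list, Gpam and Dgat1 passed as higher and 7 members as lower, against 1.67% and 1.36% of measured genes.

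Cholesterol synthesis had 5 of 18 measured members above all WT arrays and 1 below, with a median of 0.12, which was 0.05 without WT 3 and 0.20 without Glo1+/- 2. Squalene epoxidase, Sqle, an early committed step, read 11.29 and 11.35 in Glo1+/-, against 10.84, 10.64 and 10.65 in WT. Hsd17b7 read 11.50 and 11.63 in Glo1+/-, against 10.66, 10.36 and 10.96 in WT, a difference of 0.90 ± 0.17. Msmo1 and Cyp51, which remove methyl groups from lanosterol, differed by 0.62 and 0.64. Dhcr7, a last step of the pathway, lay below, at 8.69 and 8.47 in Glo1+/-, against 9.29, 9.05 and 8.70 in WT. WT 3 was the nearest WT array for 1 of the 5 members above. Without WT 3, Sqle, Hsd17b7 and Msmo1 passed (limma adjusted p = 0.024, 0.00199 and 0.0468), and in the other tissues the median was negative, at -0.36 in adipose tissue, -0.18 in liver and -0.11 in kidney.

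**Figure D4:**
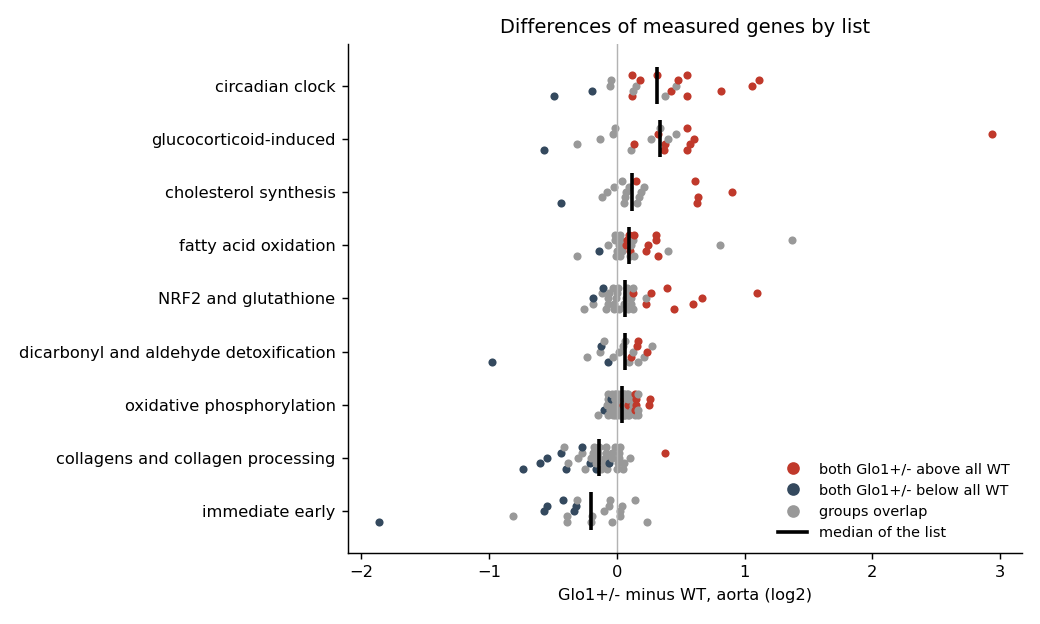
Log2 difference, Glo1+/- minus WT, of each measured gene in 9 lists, with the list median as a bar and colours for genes whose 2 groups do not overlap. The medians are 0.31 for the clock and 0.34 for glucocorticoid-induced genes, near 0 for oxidative phosphorylation and -0.20 for immediate early genes.

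The enzymes that share the work of Glo1 showed small differences. Of 19 measured genes of dicarbonyl and aldehyde detoxification 4 lay above all WT arrays and 3 below, Glo1 among those below, with a median of 0.07. Hagh, glyoxalase 2, which acts on the product of Glo1, read 11.74 and 11.65 in Glo1+/-, against 11.46, 11.46 and 11.46 in WT, a difference of 0.23 ± 0.09. Akr1a1, an aldehyde reductase, read 13.11 and 13.22 in Glo1+/-, against 13.28, 13.34 and 13.25 in WT. Park7 differed by -0.07. Without WT 3 only Glo1 of this list passed. Of 10 measured receptors and partners of advanced glycation end products, 0 stood apart in either direction, and their differences were -0.11 to 0.13.

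The oxidant and glutathione list, which NRF2 controls in large part, had 8 of 34 members above all WT arrays and 2 below, with a median of 0.06. Gclm, the modifier subunit of the enzyme that starts glutathione synthesis, read 10.66 and 10.49 in Glo1+/-, against 10.04, 9.78 and 10.13 in WT. Chac1, which degrades glutathione, read 9.61 and 9.70 in Glo1+/-, against 9.01, 8.82 and 9.13 in WT. Chac1 differed by 0.67 in aorta, 1.56 in adipose tissue, 0.59 in liver and -0.12 in kidney. Its aorta difference did not differ past the threshold from the mean of the other tissues (limma adjusted p = 0.995). Srxn1, which repairs peroxiredoxins, read 11.25 and 11.13 in Glo1+/-, against 10.68, 10.72 and 10.99 in WT. The quinone reductase gene Nqo1 overlapped near the floor, at 8.42 and 8.36 in Glo1+/-, against 8.36, 8.41 and 8.49 in WT. Without WT 3, Hmox1 (1.26, limma adjusted p = 0.000491), Chac1, Gclm and Srxn1 passed as higher and 0 as lower, against 1.67% and 1.36% of measured genes.

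Among 25 genes of the unfolded protein and ATF4 response, 7 lay above all WT arrays and 3 below, around a median of -0.0042. Dnajb9, a chaperone of the endoplasmic reticulum, read 11.92 and 11.95 in Glo1+/-, against 11.22, 11.53 and 11.54 in WT. Oxidative phosphorylation stood at 10 of 69 above and 2 below, against 16% and 15% of all measured genes, with a median of 0.04. Its subunit gene Atp5a1 differed by 0.26.

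Vessel wall genes lay mostly lower, with small medians and a larger difference for elastin. Of 31 measured smooth muscle genes 0 lay above all WT arrays and 10 below, with 26 differences negative and a median of -0.19. Myh11, smooth muscle myosin, overlapped, at 11.24 and 11.12 in Glo1+/-, against 11.16, 12.15 and 11.66 in WT. Acta2, smooth muscle actin, read 14.39 and 14.53 in Glo1+/-, against 14.63, 14.79 and 14.76 in WT. Tropomyosin Tpm1 read 12.40 and 12.40 in Glo1+/-, against 12.79, 13.28 and 12.66 in WT. Elastin, Eln, the core of the elastic layers, read 9.50 and 9.61 in Glo1+/-, against 10.95, 11.33 and 10.09 in WT, a difference of -1.24. Of 27 measured genes of elastic fibres and wall matrix 1 lay above and 10 below, with a median of -0.15.

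Collagens and their processing enzymes had 1 of 39 above and 9 below, with a median of -0.14. Col15a1 and Col18a1, collagens of basement membrane zones, both lay below all WT arrays. Col15a1 read 8.97 and 9.05 in Glo1+/-, against 9.73, 9.88 and 9.23 in WT. Col18a1 read 11.72 and 11.55 in Glo1+/-, against 12.10, 12.78 and 12.22 in WT. Col6a1, a microfibril collagen, read 11.19 and 11.30 in Glo1+/-, against 11.74, 11.94 and 11.37 in WT. WT 2, the array with skeletal muscle, was the highest of the 5 for Myh11, Tpm1, Eln and all 3 collagens. Without it the medians were -0.08 for smooth muscle, -0.09 for elastic fibres and wall matrix and -0.06 for collagens. In the other tissues the collagen median was -0.13 in adipose tissue, -0.13 in liver and -0.08 in kidney. In the same order, Col15a1 differed by -0.71, -0.31 and -0.33 and Col18a1 by -0.56, -0.14 and -0.33.

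Endothelial genes had 8 of 35 above, 2 below and a median of 0.02. Gpihbp1, on the higher side, read 11.92 and 11.82 in Glo1+/-, against 11.38, 11.40 and 11.74 in WT. Nos3, endothelial nitric oxide synthase, overlapped, at 10.13 and 10.05 in Glo1+/-, against 10.80, 10.77 and 9.94 in WT. For Nos3, WT 3 was the lowest array. Without WT 3, Gpihbp1 passed as higher and Nos3 as lower (limma adjusted p = 0.0325 and 0.00742), against 1.67% and 1.36% of measured genes. The endothelin receptor Ednrb read 11.73 and 11.74 in Glo1+/-, against 11.34, 11.27 and 11.59 in WT, in a list of 27 vasoactive genes with 3 above and 5 below. Mast cell genes had 5 of 7 measured members above all WT arrays and 0 below, with a median of 0.28, which was 0.47 without Glo1+/- 1. Hdc, which makes histamine, read 10.50 and 10.72 in Glo1+/-, against 9.97, 9.88 and 10.25 in WT, and the tryptase Tpsb2 read 8.96 and 9.03 in Glo1+/-, against 8.46, 8.56 and 8.66 in WT. Macrophage genes had 7 of 27 above and 1 below, with a median of 0.18, which was 0.075 without Glo1+/- 1 and 0.26 without Glo1+/- 2. The chemokine gene Cxcl13 read 9.48 and 9.67 in Glo1+/-, against 8.88, 8.40 and 9.47 in WT. Cell cycle genes had 0 of 27 above and 7 below and a median of -0.27, which was -0.02 without WT 3, the array with thymocyte transcripts.

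Glycolysis had 7 of 20 measured members above all WT arrays and 2 below, with a median of 0.05, which was 0.017 without WT 3. The phosphofructokinase genes split. On its brightest probe Pfkm, the muscle form, read 11.88 and 11.92 in Glo1+/-, against 12.36, 12.49 and 12.17 in WT, and passed as lower without WT 3 (limma adjusted p = 0.0164). Pfkp, the platelet form, read 11.24 and 11.07 in Glo1+/-, against 10.75, 10.83 and 10.86 in WT, and Pfkl, the liver form, differed by 0.21. Heat shock genes had 4 of 18 above and 1 below, with a median of 0.08. Hspb8, a small heat shock protein, read 11.53 and 11.53 in Glo1+/-, against 11.21, 11.10 and 11.30 in WT. The median of the list was -0.007 without WT 3.

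Interferon response genes had 4 of 23 above and 4 below, shares close to the 16% and 15% of all measured genes. Their median was -0.11, and -0.01 without WT 1. Psmb9, a subunit of the immunoproteasome, read 9.91 and 9.60 in Glo1+/-, against 10.38, 9.97 and 10.56 in WT. Cytokines and chemokines had 8 of 27 above and 2 below, with a median of 0.11, which was 0.039 without Glo1+/- 1. The chemokine gene Ccl6 read 9.15 and 9.18 in Glo1+/-, against 8.79, 8.74 and 8.66 in WT. Cxcl14, another chemokine, read 9.91 and 10.56 in Glo1+/-, against 9.58, 9.58 and 9.69 in WT. For Ccl6 and Cxcl14 both Glo1+/- arrays lay above every WT array, and neither probe passed in the aorta arrays alone, with WT 3 or without it. With the spread of 23 arrays Ccl6 passed as higher (limma adjusted p = 0.0109). A second Cxcl14 probe, dimmer on average, passed as higher without WT 3 (limma adjusted p = 0.0164). That probe also passed with the spread of 23 arrays and WT 3 kept (limma adjusted p = 0.00162). Genes of fibroblasts and adventitia had 0 of 20 above and 3 below, against 16% and 15% of all measured genes, with a median of -0.11, which was -0.059 without WT 2. Dermatopontin, Dpt, a matrix protein, read 10.96 and 11.02 in Glo1+/-, against 11.49, 11.63 and 11.14 in WT, and passed as lower without WT 3 (limma adjusted p = 0.0186).

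Whether the genotype difference in aorta departed from that in the other tissues was tested over 23 arrays. The aorta difference minus the mean of the adipose, liver and kidney differences was called for 76 probes as more positive (0.296% of probes) and for 9 as more negative (0.035%) by limma. The 76 probes include Elovl3 and Kcnk3 of the brown adipocyte list, which carry no weight as calls because such genes went into the choice of arrays. Of the 76 probes, 26 had a mean at or below the median of all probes in each of the other 3 tissues. Of the 9 negative ones, 3 did. Without Glo1+/- 2 the test called 271 probes and without WT 3 it called 245, against 49 without WT 2.

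Hmox1 was 1.18 ± 0.14 more positive in aorta than in the other tissues (limma adjusted p = 0.000299), and it was measured in all of them. In adipose tissue it averaged 9.11 in Glo1+/- and 9.05 in WT, in liver 8.50 in Glo1+/- and 8.79 in WT, and in kidney 8.79 in Glo1+/- and 8.82 in WT. Its call held in all 8 alternatives, including the fit with the left-out array, with an adjusted p of 1.36e-06 to 0.0148. In 2 of the 8, Glo1+/- aorta held 1 array, which is taken to vary like the other groups. Tacr2, the receptor of neurokinin A, read 9.63 and 9.82 in Glo1+/- aorta, against 8.33, 8.32 and 9.07 in WT aorta, and differed by 1.15 ± 0.15 more in aorta (adjusted p = 0.000695).

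Dhrs9, a retinol dehydrogenase, read 8.74 and 8.79 in Glo1+/- aorta, against 8.30, 8.28 and 8.29 in WT aorta. Reep6, a shaper of endoplasmic reticulum membranes, read 9.34 and 9.32 in Glo1+/- aorta, against 8.52, 8.71 and 8.80 in WT aorta. BC028528 read 9.75 and 9.62 in Glo1+/- aorta, against 9.03, 8.97 and 9.11 in WT aorta. For Dhrs9, Reep6, Tacr2 and Olfr654 the group means in the other tissues were 8.05 to 8.26, near the floor, where the values vary little. For Dhrs9 the standard error of the aorta difference was 0.03 with the spread of all 23 arrays and 0.09 with that of the 5 aorta arrays. With the left-out aorta array in the fit, 3 probes were called, and of the 6 genes only Hmox1 passed. On that array, which lacked brown fat transcripts, Tacr2 read 8.10, Reep6 8.17, Olfr654 8.19 and BC028528 8.47, against 9.40 for Hmox1. The part of brown fat content, by which the arrays were chosen, in these contrasts was not tested.

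**Figure D5:**
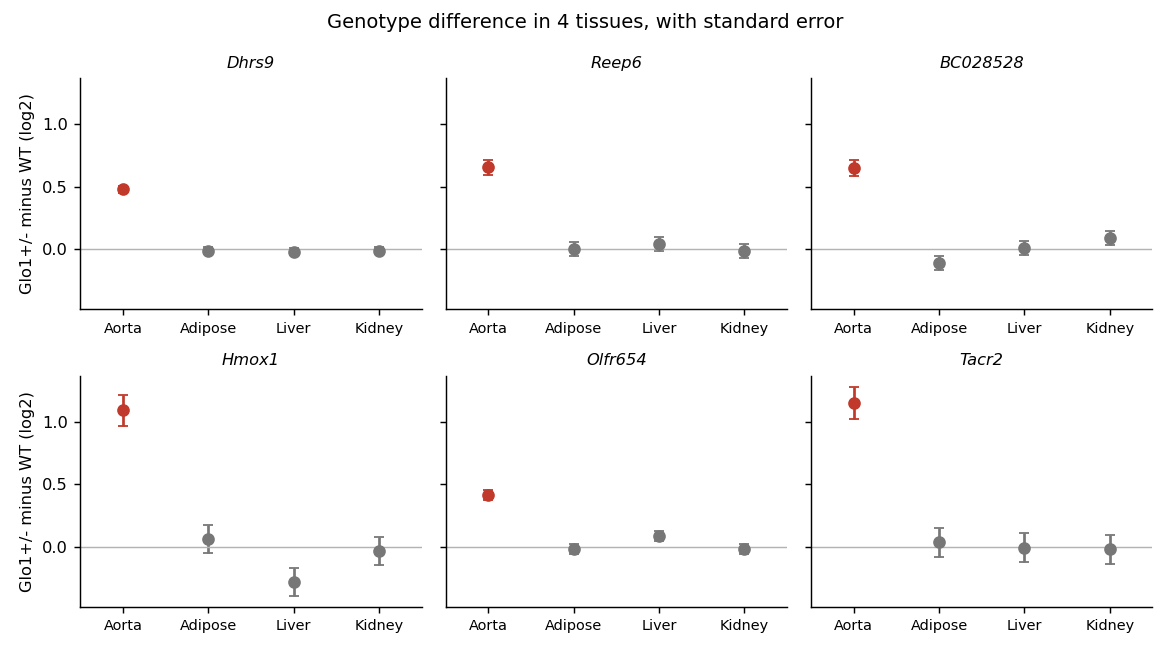
Log2 difference, Glo1+/- minus WT, of 6 genes in aorta (red, 2 Glo1+/- and 3 WT arrays) and in gonadal adipose tissue, liver and kidney (grey, 3 arrays per genotype), with standard errors from the fit over 23 arrays. The aorta differences are 0.41 to 1.15, and those of the other tissues are -0.28 to 0.09.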

How the data were processed

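The authors deposited 1 table of log2 values for 25697 probes on 24 arrays, made with lumi 2.32.0 per the submitters' processing notes. The sources used here do not name the background correction, transformation or normalization. Differences of dim probes near the floor are understated. No probe was removed before testing, and the number of arrays limits the precision. The platform annotation named 16593 genes.

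The members, gene lists and tests were chosen with earlier results of these data known. Glo1+/- aorta 1 and 2 were compared with WT aorta 1 to 3 in limma 3.58.1 (R 4.3.3) with lmFit and eBayes with trend, 2-sided, Benjamini-Hochberg over all probes, called under 0.05. All adjusted p-values are limma's, and errors after ± are its standard errors. A second model with 8 group means over 23 arrays gave the contrast with other tissues. A gene was read by its brightest probe and measured when that probe's mean over the 5 arrays lay above the median of all probes. The rule named Glo1 and its neighbours, the 12 genes per direction with the smallest p on any bright probe whose groups do not overlap, 4 members per list and 1 of opposite direction, 6 genes of the tissue contrast, and cell type markers. Other genes named were chosen after their values were seen. Alternatives covered samples, normalization, filter, spread, weights and the replicate block.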

Additional observations from a re-analysis of the deposited data

Results flagged for a closer look

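In the array left out of the comparison, Glo1+/- aorta 3, Lep read 14.73 and the macrophage gene Adgre1 10.65, both above all WT aorta arrays. The genotype difference in aorta departed from that of the other tissues for 76 probes as more positive and for 9 as more negative, by the limma test of that difference. The 6 genes with the smallest p in it were Dhrs9, more positive in aorta by 0.49, Reep6 by 0.65, BC028528 by 0.65, Hmox1 by 1.18, Olfr654 by 0.40 and Tacr2 by 1.15.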

How the results depend on the processing

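The count of called probes was 0 with all 6 aorta arrays, without trend, with the filter, with quantile normalization and with arrayWeights. It was 0 to 349 with 1 array left out, namely 349 without WT 3, 14 without Glo1+/- 1 and 0 otherwise; where 1 Glo1+/- array remains, it is taken to vary like the WT arrays. It was 143 with the spread of 23 arrays. With the replicate number as a block it was 939, and Glo1 fell by 1.28 (adjusted p = 1.69e-07). The labels do not tie replicate numbers to animals, and deviations of same-numbered arrays correlated at 0.072 and 0.0061, so this block rests on a shared number only. Glo1 was -1.28 to -0.74 with 1 array left out, passing without WT 3 alone. The cause of these shifts was not tested, beyond the place of WT 3 given above. The tissue contrast called 3 probes with all 24 arrays, 53 against liver and kidney only, and 49 to 271 with 1 aorta array left out, an alternative chosen after seeing the data. Of 972 alternative values for 81 genes, 798 kept direction and call, 151 became calls and 23 reversed, though none of the reversed ones was called. With all 6 arrays these became Hagh -0.066, Akr1a1 0.086, Elovl3 -0.14, Kcnk3 -0.46, Slc27a2 -0.26, Lep 0.24, Sncg 0.79, Mcam 0.045, Col15a1 0.41, Col6a1 0.29, Ttr 0.32, Decr1 -0.29, Cpt1b -1.51, Atp5a1 -0.25, Tuba1b 0.081, Lasp1 0.11, Angptl4 0.23, Srxn1 -0.16 and Nr1d1 0.085. Nr1d1 ranged from -0.11 to 0.036 and Nqo1 from -0.060 to 0.0022 with 1 array left out, and Nqo1 was 0.0022 with the replicate block. Medians of the 41 lists kept their sign under quantile normalization in 41, with all 6 arrays in 27, over all matched members in 40 and with the mean over probes in 41. With 1 array left out, the small medians of the NRF2 and glutathione, dicarbonyl and oxidative phosphorylation lists were 0.016, 0.015 and 0.017 at their lowest.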
